A study of Mus musculus with 20 samples.

Results

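The 10 genes described here carry out the kidney's handling of vitamin D, phosphate and calcium: *Kl*, *Cyp24a1*, *Cyp27b1*, *Vdr*, *Slc34a1*, *Slc34a3*, *Slc20a2*, *Trpv5*, *Calb1* and *Casr*. They were chosen by name, as genes of these pathways, from the 24411 genes of the count table, with earlier results of these data known. Kidney RNA was sequenced from 20 mice at P125, 5 of each sex and genotype, from 3 litters called A, B and C. The library titles of a litter share a prefix that has the form of a date, so litter and a batch by date cannot be told apart. Mutants carried floxed *Pkd2* alleles (fl/fl) together with the *Pax8* rtTA and *TetO* Cre transgenes, so that DOX (doxycycline hyclate, 50 mg/kg daily from P27 to P29) induces deletion of *Pkd2* in every tubule segment through the *Pax8* promoter. Controls were DOX-treated littermates that lacked *Pax8* rtTA or *TetO* Cre, so the floxed background and DOX were common to all groups. Mice are named by sex, genotype and number (MC4 is male control 4, FM4 female mutant 4), and levels are CPM, counts scaled to a common library size. DEGs are genes at a Benjamini-Hochberg adjusted p under 0.01 in edgeR's quasi-likelihood test over all genes.

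The kidney makes and destroys active vitamin D. *Cyp27b1* encodes the 1-alpha-hydroxylase that produces it and *Cyp24a1* the 24-hydroxylase that inactivates it, and both are regulated by the vitamin D receptor (*Vdr*), by parathyroid hormone and by FGF23, for which klotho (*Kl*) is the coreceptor. Phosphate is reclaimed from the filtrate in the proximal tubule by the sodium-phosphate cotransporters NaPi-IIa (*Slc34a1*) and NaPi-IIc (*Slc34a3*), while *Slc20a2* encodes the more widely expressed transporter PiT-2. Calcium is reclaimed under hormonal control in the distal convoluted and connecting tubule, where it enters through the channel TRPV5 (*Trpv5*) and is buffered by calbindin-D28k (*Calb1*), and the calcium-sensing receptor (*Casr*) is most abundant in the thick ascending limb.

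The libraries held 11307741 to 19324073 counts. *Pkd2*, the targeted gene, was at 250.4 to 332 CPM in male controls and 109.7 to 133 in male mutants, and at 193 to 306 in female controls and 94.8 to 182 in female mutants. Neither sex overlapped between genotypes. *Xist* was at 462 CPM or more in every female, FC5 being the lowest, and at most 0.439 in every male. Proximal tubule markers summed to between 7083 and 15044 CPM in every kidney. The adipose tissue marker *Cfd* was at 322 CPM in FM3, 94.2 in FC3 and 80.4 in FC5, and at most 38.9 in any other mouse. What adipose tissue adds to the values of these kidneys was not tested. In FM4 14850 genes had a count, fewer than in any other library (16776 to 17724), and values without it are given where it changes a call or the order of a result. Only 76 genes of FM4 had exactly 1 count, against 708 to 859 in the other libraries, and the cause was not tested. FM4 was also the mutant of lowest kidney weight relative to body weight (0.836%). This is bulk RNA, in which fewer cells of a type and less RNA per cell cannot be told apart.

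The 10 genes covered a wide range of levels. Per kilobase of exon, *Slc34a1* was the most abundant in male controls, at 1144 ± 37.7 CPM per kb (SD, n = 5), followed by *Calb1* at 129 ± 23.8 and *Kl* at 98.7 ± 4.04. *Vdr* and *Cyp24a1* stood at 61.6 ± 4.48 and 51.5 ± 14.1. *Cyp27b1* was the lowest, at 1.52 ± 0.240 CPM per kb, so its values rest on the fewest reads. The same 3 genes led in female controls, where *Slc34a1* was at 775 ± 74.8 CPM per kb, *Calb1* at 187 ± 21.5 and *Kl* at 98.2 ± 11.2.

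**Figure D1:**
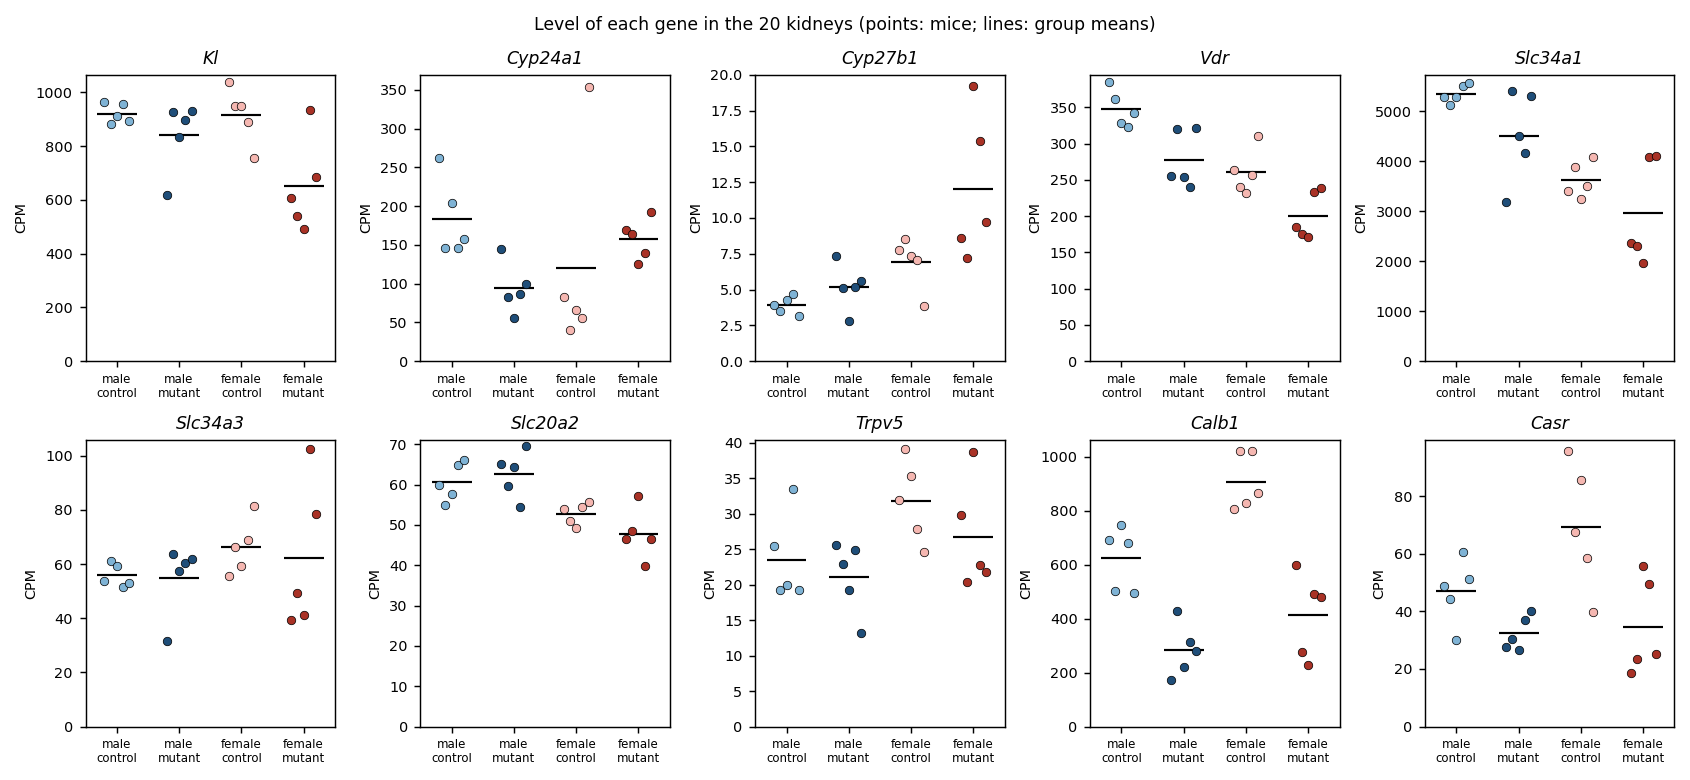
Level of each of the 10 genes in CPM (vertical axes, starting at 0) in the 20 mice, by group, with each point 1 mouse and each line a group mean. *Calb1* separates mutants from controls in both sexes, and 1 female control, FC5, lies at 354 CPM of *Cyp24a1* above all other mice.

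Whether loss of *Pkd2* went with altered levels of these genes was asked in each sex and in both together. Over both sexes, 3 of the 10 were DEGs, all lower in mutants: *Calb1*, *Casr* and *Vdr*. Of all 14191 genes tested, 2252 (15.9%) were DEGs, 831 of them lower. In males, 2 of the 10 were DEGs, *Calb1* and *Cyp24a1*, both lower, against 1185 of 14010 genes (8.46%). In females none of the 10 was a DEG, against 92 of 14439 genes (0.637%), although 2979 genes had an unadjusted p under 0.05. The median log2 fold change of the 10 genes was −0.25 over both sexes, and that of all genes −0.01.

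*Calb1* gave the largest genotype difference of the 10 over both sexes. In male controls it was at 692, 504, 745, 680 and 496 CPM, and in male mutants at 174, 429, 222, 314 and 281. In female controls it was at 807, 1019, 829, 1020 and 864 CPM, and in female mutants at 599, 276, 229, 492 and 479. Every mutant lay below every control of its sex. The log2 fold change was −1.14 (SE 0.174, adjusted p = 0.000119 in edgeR) over both sexes, a level in mutants of 0.454 times that of controls. It was −1.12 (SE 0.214, adjusted p = 0.00492 in edgeR) in males and −1.16 (SE 0.232, adjusted p = 0.0210 in edgeR) in females. The female value passed in 1 of the 10 fits that left out 1 mouse, that without FM4 (−1.31, adjusted p = 0.00727). Its adjusted p reached 0.0667 without FC4. Mutants were lower than controls in each of the 3 litters of either sex. Male litter C and female litters A and C each held 1 mutant and 1 control. The male call was lost in 6 of the 10 fits that left out 1 mouse (MC1, MC3, MC4, MC5, MM3 or MM5), with the highest adjusted p of 0.0423 without MC4.

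*Vdr* showed a smaller difference. Male controls lay between 323 and 385 CPM and male mutants between 240.0 and 322, and the groups did not overlap. Female controls lay between 232 and 311 CPM and female mutants between 172 and 239, with FM4 and FM5 the only mutants within the range of controls. The log2 fold change over both sexes was −0.33 (SE 0.0675, adjusted p = 0.00138 in edgeR), and *Vdr* stayed a DEG in all 20 fits that left out 1 mouse. Within a sex it was −0.30 (SE 0.0822, adjusted p = 0.0266) in males and −0.35 (SE 0.103, adjusted p = 0.0732) in females in edgeR. In females it passed in 1 of the 10 fits that left out 1 mouse, that without FM4 (−0.44, adjusted p = 0.00729). The female adjusted p reached 0.211 without FC1.

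*Casr* was at 48.7, 44.4, 30.0, 60.6 and 51.4 CPM in male controls and at 27.8, 30.6, 26.5, 37.2 and 40.3 in male mutants. In female controls it was at 95.8, 67.6, 85.7, 58.6 and 39.7 CPM, and in female mutants at 18.7, 23.6, 55.9, 49.6 and 25.2. Both pairs of groups overlapped, through MC3 in males and FC5 in females. The log2 fold change over both sexes was −0.80 (SE 0.183, adjusted p = 0.00317 in edgeR). Without MC4 the adjusted p was 0.0111. Mutants were lower in each litter of either sex, by between 0.35 and 2.35 on the log2 scale. Both ends are single pairs, MM5 against MC5 in male litter C and FM1 against FC1 in female litter A.

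*Kl* was at 881 to 964 CPM in male controls and 617 to 929 in male mutants, of which only MM1 and MM3 lay below the lowest control. Female controls were at 1038, 949.8, 948, 888 and 755 CPM and female mutants at 606, 539, 492, 933 and 684. All female mutants other than FM4 lay below the lowest female control. The log2 fold change of −0.32 over both sexes (SE 0.115, adjusted p = 0.0454 in edgeR) did not pass. It passed in 1 of the 20 fits that left out 1 mouse, that without FM4 (−0.40, adjusted p = 0.00821), and its adjusted p reached 0.106 without FM1. In females alone it was −0.47 (SE 0.171, adjusted p = 0.144) with FM4 and −0.65 (SE 0.128, adjusted p = 0.00942) without it. That was the only 1 of the 10 such female fits that passed, and the adjusted p reached 0.346 without FC1.

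The transporters and the channel showed no genotype call in any of these comparisons. Over both sexes the log2 fold change was −0.28 for *Slc34a1* (SE 0.125, adjusted p = 0.105), −0.08 for *Slc34a3* (SE 0.148, adjusted p = 0.733), −0.05 for *Slc20a2* (SE 0.0670, adjusted p = 0.632) and −0.22 for *Trpv5* (SE 0.122, adjusted p = 0.204) in edgeR. *Slc34a1* was most spread among mutants, from 3183 to 5392 CPM in males and from 1970 to 4093 in females, against 5131 to 5552 and 3235 to 4084 in controls. *Slc34a3* was at 51.6 to 61.1 CPM in male controls, 31.6 to 63.8 in male mutants, 55.5 to 81.4 in female controls and 39.2 to 102 in female mutants. *Slc20a2* was at 54.9 to 66.1 CPM in MC, 54.4 to 69.6 in MM, 49.1 to 55.7 in FC and 39.8 to 57.2 in FM mice. *Trpv5* lay between 13.2 and 39.1 CPM in all 20 mice, with overlap between the genotypes in both sexes. *Slc34a1* shares 545 bases of exon with *Pfn3* and *Slc20a2* shares 95 with *Smim19*, both on the opposite strand.

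**Figure D2:**
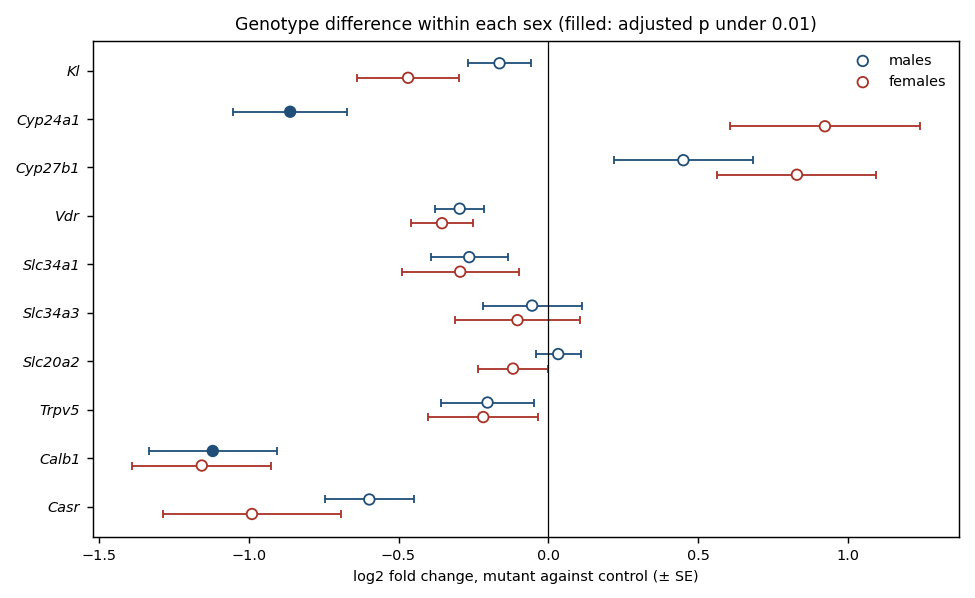
Log2 fold change of mutants against controls (horizontal axis, bars ± SE) for the 10 genes in males and in females, 5 mice a group. Filled points passed an adjusted p under 0.01, which *Calb1* and *Cyp24a1* did in males, and *Cyp24a1* is the gene with a large value of opposite sign in the 2 sexes, −0.86 and 0.92.

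The enzymes of vitamin D turnover showed a different pattern. *Cyp24a1* was at 262, 146, 205, 147 and 157 CPM in male controls and at 145, 83.1, 56.2, 86.3 and 100.3 in male mutants. All male mutants lay below all male controls, MM1 by a narrow margin. The log2 fold change was −0.86 (SE 0.189, adjusted p = 0.00911 in edgeR), and the call rests on the set of mice: it held in 2 of the 10 fits that left out 1 mouse, those without MC2 and MM1, and the adjusted p reached 0.0627 without MC4. In female controls it was at 83.4, 39.8, 66.6, 56.1 and 354 CPM and in female mutants at 169, 164, 125.3, 139.7 and 193. Apart from FC5, every female control lay below every female mutant. The female log2 fold change was 0.92 (SE 0.317, adjusted p = 0.121 in edgeR) with FC5 and 1.33 (SE 0.173, adjusted p = 0.0110) without it.

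The difference between the sexes in that change was then tested for all genes. The sex-by-genotype term of *Cyp24a1* was −1.75 (SE 0.405, unadjusted p = 0.000442, adjusted p = 0.346 in edgeR). None of the 14820 genes tested was called (0%), and 618 had an unadjusted p under 0.05. DESeq2 called 18. In edgeR the *Cyp24a1* term was called without FC5 or without FM5, with adjusted p = 0.00949 for the latter. These 2 fits are not separate, since FC5 and FM5 are the only females of litter C and leaving out either removes the same contrast. An exact permutation test of *Cyp24a1* alone, added after its values were seen, gave p = 0.00693 (two-sided, 63504 relabellings of genotype within sex). Its relabellings ignore litter and assume no genotype difference in either sex, so it cannot single out a difference between the sexes. Within litters, mutants were lower in all 3 male litters, of which C holds only MC5 and MM5. They were higher in female litter A, which holds only FC1 and FM1, and in female litter B, by 1.02 and 1.42 on the log2 scale. In female litter C, which holds only FC5 and FM5, the mutant was lower by 0.87. *Cyp24a1* shares 83 bases of exon with *Pfdn4* on the opposite strand, and whether counting used strand is not given in the sources used here.

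*Cyp27b1* was at 3.15 to 4.71 CPM in male controls and 2.82 to 7.35 in male mutants. In female controls it was at 7.78, 8.57, 7.37, 7.09 and 3.87 CPM and in female mutants at 8.58, 7.20, 19.2, 15.4 and 9.70. FC5, the highest mouse for *Cyp24a1*, was the lowest female for *Cyp27b1*. The log2 fold change over both sexes was 0.64 (SE 0.185, adjusted p = 0.0146 in edgeR), just short of the threshold, and DESeq2 called it (adjusted p = 0.00545). The median ratio of *Cyp24a1* to *Cyp27b1* counts in the same library was 47.8 for MC, 17.9 for MM, 9.03 for FC and 19.7 for FM mice. The ratio was between 31.1 and 66.3 in male controls and between 16.2 and 20.0 in male mutants, with no overlap, whereas it reached 91.4 in FC5.

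**Figure D3:**
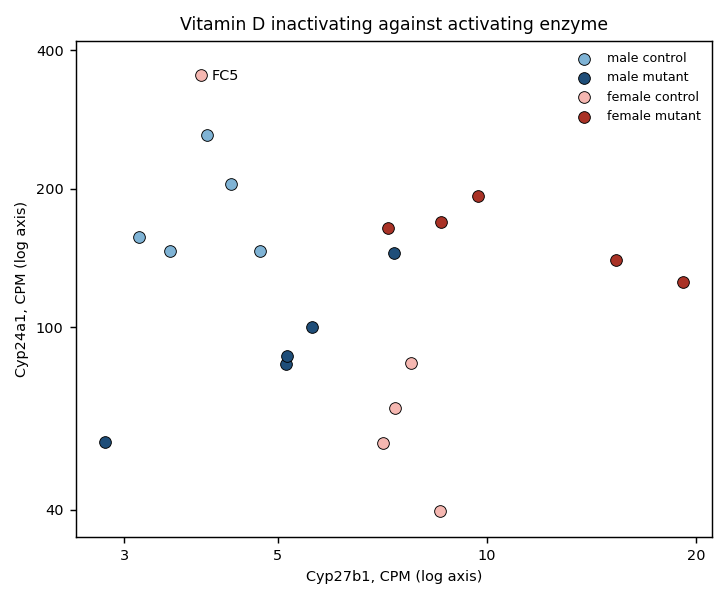
*Cyp24a1* against *Cyp27b1* in CPM (both axes log) in the 20 mice, coloured by group. The 4 female controls other than FC5 lie between 39.8 and 83.4 CPM of *Cyp24a1*, below all female mutants, and FC5 lies above the male controls at 354 CPM of *Cyp24a1* and 3.87 of *Cyp27b1*.

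Levels were next compared between the sexes, a contrast that shares its mice with those above. Among controls, 3 of the 10 genes were DEGs, against 2510 of 14123 (17.8%). *Slc34a1* was higher in males (log2 fold change 0.62, SE 0.0831, adjusted p = 0.000161 in edgeR), as was *Vdr* (0.40, SE 0.0772, adjusted p = 0.00218), and *Cyp27b1* was lower (−0.70, SE 0.159, adjusted p = 0.00587). The male controls lay above all female controls for *Slc34a1*, from 5131 CPM against at most 4084, and for *Vdr*, from 323 CPM against at most 311. *Slc34a1* was called in all 10 fits that left out 1 mouse, *Vdr* in 8 (not without MC4 or FC1) and *Cyp27b1* in 5 (not without MC1, MC2, MC4, FC1 or FC2), and none of the 3 was called when all 20 mice were fitted together. *Calb1* was lower in every male control than in any female control, but its log2 fold change of −0.46 did not pass (SE 0.126, adjusted p = 0.0158). *Cyp24a1* was at 0.82 (SE 0.367, adjusted p = 0.114) with FC5 and 1.40 (SE 0.202, adjusted p = 0.000454) without it. It was also called without MC5, at the same 1.40. FC5 and MC5 are the only controls of litter C, so with litter as covariate leaving out either removes the same contrast. Without MC4 *Cyp24a1* was at 0.26.

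Among mutants none of the 10 genes was a DEG between the sexes, against 782 of 14416 (5.42%). The values nearest the threshold were those of *Cyp24a1*, at −0.86 (SE 0.181, adjusted p = 0.0117 in edgeR), and *Vdr*, at 0.46 (SE 0.130, adjusted p = 0.0382). DESeq2 called both together with *Cyp27b1*, beside 1959 of 14416 genes. Without FM4 the value of *Vdr* was 0.55 (SE 0.101, adjusted p = 0.00496 in edgeR), a DEG. *Vdr* was called in no other of the 10 fits that left out 1 mouse, and its adjusted p reached 0.200 without FM1. *Cyp24a1* was at 56.2 to 145 CPM in male mutants and all female mutants but FM3 and FM4 lay above that range. For *Vdr* the group means, from high to low, were 348 ± 25.3 CPM in MC, 278 ± 39.7 in MM, 261 ± 30.6 in FC and 201 ± 32.6 in FM mice (SD, n = 5 each). The middle pair differed by less than their spread.

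The upstream sequence of *Cyp27b1* is shown because the gene is the regulated step of vitamin D activation and differed between the sexes. It covers 250 bases before the RefSeq start on GRCm38.p6 (chr10:127047996-127048245, plus strand), and the capitals mark a CCAAT box, here on the opposite strand.
Cyp27b1: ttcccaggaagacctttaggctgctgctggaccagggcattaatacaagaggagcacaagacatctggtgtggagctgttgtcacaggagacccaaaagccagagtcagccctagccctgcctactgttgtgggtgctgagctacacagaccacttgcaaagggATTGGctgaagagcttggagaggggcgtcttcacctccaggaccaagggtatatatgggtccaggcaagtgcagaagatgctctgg
Such windows were at hand for 7 of the 10 genes, and *Cyp24a1*, *Calb1* and *Slc20a2* could not be searched. CCAAT, searched on both strands, was in the windows of *Cyp27b1* and *Slc34a3* and in 33.8% of all 32851 windows. A direct repeat vitamin D response element with a 3-base spacer matched none of the 7 and 0.222% of all windows. A match is a description of letters and not of binding.

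Relation to disease severity was examined with KBW, kidney weight as a percentage of body weight, which was 1.22 to 2.15% in male mutants and 0.836 to 1.46% in female mutants. In the 10 mutants, with sex as a covariate, no gene of 14416 had a slope on KBW at an adjusted p under 0.01 (0%), while 3212 had an unadjusted p under 0.05 and DESeq2 called 577. The slopes are log2 changes per percentage point of KBW. *Slc34a3* had the steepest of the 10, at −1.58 (SE 0.288, adjusted p = 0.0295 in edgeR), followed by *Calb1* at −1.23 (SE 0.394, adjusted p = 0.101), *Slc34a1* at −1.17 (SE 0.296, adjusted p = 0.0576) and *Kl* at −0.90 (SE 0.223, adjusted p = 0.0551). DESeq2 called *Slc34a3*, *Slc34a1* and *Kl*. Without MM1, the mutant of highest KBW, the adjusted p was 0.204 for *Slc34a3*, 0.313 for *Calb1*, 0.207 for *Slc34a1* and 0.219 for *Kl*. Without FM4, the mutant of lowest KBW, the slope of *Slc34a3* was −1.32 (adjusted p = 0.123) and that of *Calb1* was the steepest, at −1.34 (adjusted p = 0.196), while *Slc34a1* was at −1.07 (adjusted p = 0.177) and *Kl* at −0.67 (adjusted p = 0.186).

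*Slc34a3* was at 39.2, 49.2, 41.1, 102 and 78.6 CPM in female mutants FM1 to FM5, whose KBW was 1.38, 1.24, 1.46, 0.836 and 1.00%. The 2 females of lowest KBW had the 2 highest levels. In males MM1 had the highest KBW, 2.15%, and the lowest level, 31.6 CPM, and the other 4 lay between 57.5 and 63.8. Over the 10 mutants Pearson's r with KBW was −0.714 (permutation p = 0.0204, adjusted p = 0.234 over all genes) and Spearman's rho −0.648 (permutation p = 0.0480, adjusted p = 0.394). Without MM1 and FM4, the mice farthest from the median KBW, r was −0.221, so the pooled relation rests on those mice. With both measures centred within sex r was −0.868 (exact permutation p = 0.000417, adjusted p = 0.104).

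*Calb1* had r = −0.784 (permutation p = 0.00694, adjusted p = 0.162), rho = −0.758 (permutation p = 0.0147, adjusted p = 0.286) and r = −0.622 without those 2 mice. *Slc20a2* had r = 0.833 (permutation p = 0.00273, adjusted p = 0.127), rho = 0.818 (permutation p = 0.00585, adjusted p = 0.242) and r = 0.757 without them. Mean KBW was 1.68% in male and 1.18% in female mutants, so pooled values mix in sex. Centred within sex, r was −0.719 for *Calb1* (exact permutation p = 0.0281, adjusted p = 0.167). For *Slc20a2* it was 0.658 (exact permutation p = 0.0441, adjusted p = 0.201), and the slope with sex as covariate was 0.34 (SE 0.186, adjusted p = 0.304 in edgeR). *Kl* and *Slc34a1* had a pooled r of −0.111 and −0.007 and, centred within sex, −0.837 (exact permutation p = 0.00181, adjusted p = 0.107) and −0.822 (exact permutation p = 0.00625, adjusted p = 0.113). These correlations were computed for 14416 genes and none had an adjusted p under 0.05. The values centred within sex were not computed with mice left out.

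**Figure D4:**
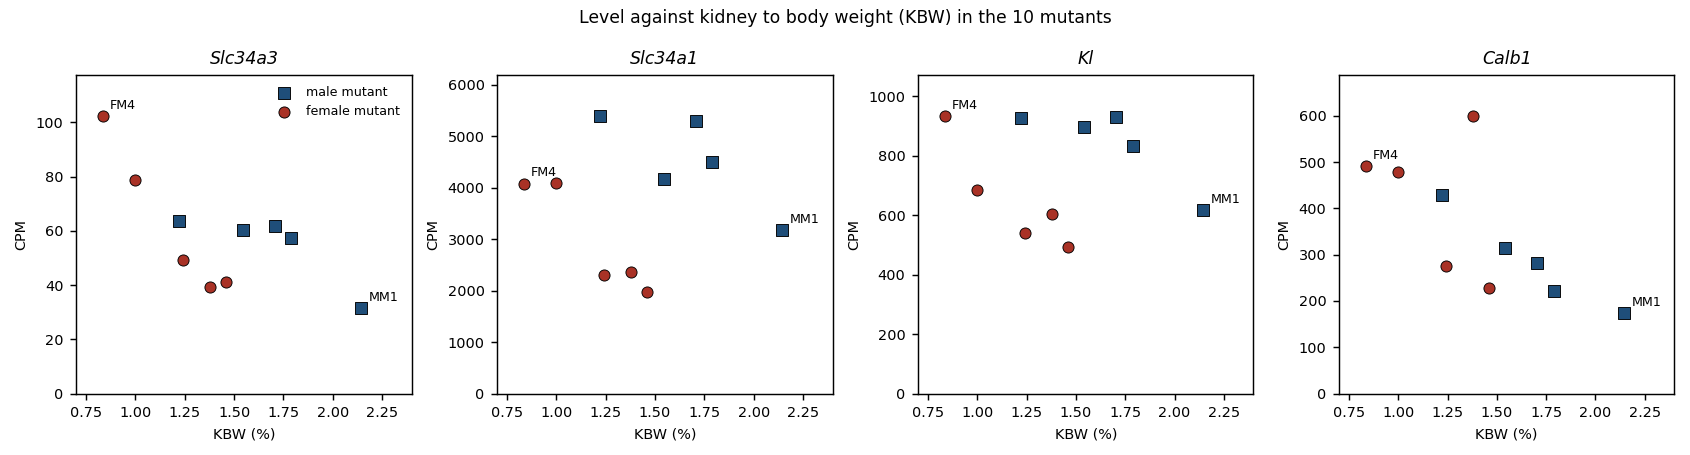
Level in CPM (vertical axes, starting at 0) of 4 of the genes against KBW (horizontal axes, %) in the 10 mutants, males as squares and females as circles. Male mutant MM1 and female mutant FM4 are the mice farthest from the median KBW, and within each sex the mouse of highest KBW has the lowest level or close to it.

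Other genes of the same pathways were drawn from 4 lists. These were also chosen with earlier results of these data known, so the shares called are descriptions. Of the calcium list, 12 genes were tested over both sexes, 4 were lower and 1 higher. The lower ones were *Pvalb*, the calcium buffer parvalbumin (log2 fold change −1.26, SE 0.169), *Slc8a1*, the sodium-calcium exchanger (−0.93, SE 0.135), *S100g*, calbindin-D9k (−0.91, SE 0.167), and *Atp2b4*, a plasma membrane calcium pump (−0.45, SE 0.0933), all at an adjusted p of at most 0.00144 in edgeR. Of the phosphate list, 11 genes were tested, *Slc34a2*, the cotransporter NaPi-IIb, was higher (1.87, SE 0.374, adjusted p = 0.00115) and the scaffold gene *Slc9a3r2* lower (−0.31, SE 0.0693, adjusted p = 0.00301). Of the FGF23, klotho and parathyroid hormone list, 10 were tested and 3 were higher: *Adam10* (0.37, SE 0.0613) and *Adam17* (0.24, SE 0.0617), proteases known to shed klotho, and *Galnt3* (0.36, SE 0.0570), which glycosylates FGF23. *Fgfr2* was lower (−0.27, SE 0.0720, adjusted p = 0.00852). None of the 11 tested genes of vitamin D supply and uptake was called. The shares called were 41.7%, 18.2%, 40% and 0% in the order given, beside 15.9% of all genes, and the phosphate list was near that share. The list medians were −0.05, −0.10, −0.08 and −0.01 in the same order, beside −0.01 for all genes.

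Markers of the segments in which these genes are used were compared too, beside the 15.9% of all genes that were DEGs over both sexes. The marker lists carry the same limit of choice. Of 8 distal convoluted and connecting tubule markers 7 were lower in mutants over both sexes, *Slc12a3* among them (−1.11, SE 0.136, adjusted p = 1.79e-05 in edgeR), and their median was −0.81. Their summed level was 1187 to 1516 CPM in MC and 575 to 976 in MM mice, and 1614 to 2052 in FC and 735 to 1160 in FM mice. Of 8 thick ascending limb markers 5 were lower (62.5%), with a median of −0.56. Of 10 proximal tubule markers 2 were lower (20%, near the share of all genes), with a median of −0.19. All 7 macrophage and leukocyte markers and 7 of 8 tubule injury markers were higher. The part of these shifts in the values of *Calb1*, *Casr* and *Vdr* was not tested. Over the 20 mice the genes most like *Calb1* in log2 CPM were *Pgam2* (Pearson's r = 0.969), *Pvalb* (0.967) and *Klk1* (0.959), those most like *Casr* were *Shroom2* (0.945) and *Klhl3* (0.930), and those most like *Vdr* were *Bhmt2* (0.961) and *Aldh9a1* (0.956). *Slc34a3* was most like *Slc5a2* (0.851), the sodium-glucose cotransporter, and *Cyp24a1* had no gene above 0.715. These values are descriptions over mice that share groups.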

How the data were processed

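Kidney RNA of 20 mice was sequenced, 1 library each. The authors trimmed reads with fastp 0.23.2, aligned them to mm10 with STAR 2.7.10b and deposited raw counts per gene symbol; the counting tool, annotation and strand setting are not given in the sources used here. Here edgeR 4.0.16 (R 4.3.3) was used for TMM scaling, filterByExpr and the quasi-likelihood test over all genes; comparisons within a sex or genotype had litter as covariate, the groups of sex and litter over all mice, and sex for the slope on KBW. All 10 genes passed the filter in each comparison. Log2 CPM used a prior count of 2, and correlations 100000 permutations or all 14400 orders within sex. Totals of 11307741 to 19324073 counts leave *Cyp27b1* with the fewest reads of the 10. Separate mice are the replicates. Alternatives were DESeq2 1.42.0 (size factors, Wald test), other filters and covariates, all mice in 1 fit and each mouse left out. The procedure was tested on simulated data. The 10 genes and the lists were chosen with earlier results of these data known. Named list genes were at most the 4 largest changes of a list past the threshold (mean level 1 CPM or higher); the most alike genes are those of highest correlation. *Xist* was added as a check of labels. Positions are from GENCODE on GRCm38 and upstream sequence from RefSeq.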

Additional observations from a re-analysis of the deposited data

Results flagged for a closer look

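Of the 40 sets of 5 mice (10 genes in 4 groups), 2 held a mouse far from the others by Dixon's criterion, and chance gives about 1 in 20. Female control FC5 had 354 CPM of *Cyp24a1*, with a gap to the next mouse of 0.861 of the group's range, against a critical value of 0.71. Male mutant MM1 had 31.6 CPM of *Slc34a3*, with a gap of 0.806 of the range. The genotype change of *Cyp24a1*, male minus female, was −1.75 (log2), with an adjusted p of 0.346 over all genes in edgeR. The exact permutation p of 0.00693 was for this gene alone and was added after its values were seen. Its relabellings assume no genotype difference in either sex.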

How the results depend on the processing

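No paired analysis was possible because replicate numbers were given in accession order and pair no mice; litter was a term of all fits but the slope on KBW. Of the 10 genes, the number called in males was 4 at an adjusted p under 0.05 and with DESeq2's Wald test. It was 1 with at least 10 counts in every mouse (1016 of 13093 genes) and 1 with all 20 mice in 1 fit (690 of 14820). In females it was 1, 2 and 1 at an adjusted p under 0.05, with DESeq2 and with all 20 mice, and over both sexes 5 at 0.05. Between male and female controls it was 5 at 0.05, 5 with DESeq2 (3025 of 14123 genes) and 0 with all 20 mice (1700 of 14820). Between mutants it was 2, 3 and 3 in the same order, and 1 without the low-count filter (892 of 19355). For the slope on KBW it was 1 at 0.05 and 3 with DESeq2.

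Over all genes, the counts of DEGs at an adjusted p under 0.05 were 2829 in males, 791 in females, 3778 over both sexes, 4211 between control males and females, 2099 between mutant males and females, 1 for sex by genotype and 363 for the slope. DESeq2's Wald test gave 2001, 928, 1959, 18 and 577 in males, females, mutants, sex by genotype and the slope. All 20 mice in 1 fit gave 690, 672 and 2353 in males, females and mutants. In females no low-count filter gave 230 and no litter term 172. For sex by genotype no filter gave 2 and at least 10 counts in every mouse 1, and the slope with sex and litter gave 10. With 1 mouse left out, the genes called ranged from 187 (without MC4) to 1863 (without MM2) in males and from 3 (without FC2) to 866 (without FM4) in females. Over both sexes they ranged from 1656 (without MC4) to 2994 (without FM4). The range was 1223 (without MC4) to 2659 (without MC3) between controls and 246 (without FM1) to 1330 (without FM4) between mutants. It was 0 to 3 (without FM4) for sex by genotype and 0 to 76 (without MM5) for the slope. Of the 10 genes, 0 to 2 were called in males, 0 to 3 in females, 3 to 4 over both sexes, 1 to 4 between controls, 0 to 1 between mutants, 0 to 1 for sex by genotype and 0 for the slope.

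The pooled correlation with KBW turned sign for *Kl* without the 2 mice farthest from the median (0.359), and for *Slc34a1* there (0.204) and as Spearman's rho (0.079). With 1 mutant left out it ranged from −0.219 to 0.104 for *Kl* and from −0.118 to 0.082 for *Slc34a1*. The log2 changes checked were those of all 10 genes with genotype, the 4 slopes given, and others near or past the threshold in any fit: 41 of 45 never changed sign. The other 4 were close to 0. *Slc34a3* was at 0.17 in males and 0.0057 over both sexes without MM1, from lowest values of −0.20 without MM2 and −0.22 without FM4. *Slc20a2* in males ranged from −0.014 without MM1 to 0.099 without MC4. *Cyp24a1* over both sexes, 0.005, was −0.00096 with DESeq2 size factors, −0.0018 without the low-count filter and −0.27 without the litter term, and ranged from −0.16 without FC2 to 0.21 without MC4. The causes were not tested. *Cyp27b1* had the fewest reads.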

Other observations

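FC5 stood at the male end of the controls for *Cyp24a1* (354 CPM) and *Cyp27b1* (3.87 CPM), and was the highest female control for *Vdr* (311 CPM) and *Slc34a1* (4084 CPM). It was also the lowest female control for *Casr* (39.7 CPM) and *Trpv5* (24.6 CPM) and the highest for *Slc20a2* (55.7 CPM), each within the range of male controls. *Slc34a3*, *Kl* and *Calb1* did not follow. Its *Slc34a3* (81.4 CPM) lay above all male controls (at most 61.1) and its *Kl* (755 CPM) below them (at least 881). Its *Calb1* (864 CPM) lay within the range of the other female controls and above all male controls.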
